A study of Mus musculus with 24 samples.

Results

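Arntl, Clock and Npas2 encode the activating proteins of the mammalian circadian clock, and they were followed here in mouse liver over 1 day, at 2 ages and in 2 genotypes. Every array feature whose GeneName was Arntl, Clock or Npas2 was taken, with no use of its values. This gave 6 of the 41174 probes of the array, 1 for Arntl, 4 for Clock and 1 for Npas2, and all 6 were among the 27847 probes that passed the filter on dim signals. The filter kept probes whose Cy3 signal stood well above background on 4 or more of the 24 arrays, and the 6 probes met it on all 24. The Clock probes are numbered from the brightest (Clock 1) to the dimmest (Clock 4), and each probe was tested on its own.

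The mice were C57Bl/6J and homozygous for a floxed Mop3 gene. They either lacked Cre recombinase (Mop3fxfx, floxed livers below) or expressed it from the albumin promoter (Mop3fxfxCreAlb, Cre livers below). Mop3 is an older name of Arntl, which is also called Bmal1. Mice had 12 h of light a day and free access to food, and ZT0 is the hour at which the lights came on. Collection ran at intervals of 4 h up to ZT20, at 10 weeks and at 20 weeks of age, over separate days. Each of the 24 arrays compared pooled liver RNA of 3 or more mice, alike in genotype, age and hour, with a reference pool drawn from the 10-week mice of both genotypes. All groups carry the floxed alleles. Albumin-Cre acts in hepatocytes, and the state of the gene in the other cells of the liver was not measured here. No group carried Cre without the floxed alleles, so an effect of Cre and loss of Mop3 cannot be told apart. Each genotype, age and time had 1 array, so a time is repeated only across the 2 ages. Precision is limited by this small number of arrays.

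ARNTL is a transcription factor of the bHLH-PAS family that binds DNA as a dimer with CLOCK, and NPAS2 is a paralog of CLOCK that can take its place. The dimers bind E-box elements and activate the Per and Cry genes, whose products repress the dimers, and the Nr1d1 and Nr1d2 genes, whose products (REV-ERB) repress Arntl itself. ROR proteins activate Arntl through the same elements that REV-ERB binds. In liver of intact animals the Arntl transcript is among the most rhythmic, while the Clock transcript is known for a shallower rhythm.

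The probes are oligos of 60 bases, and each value below is the signal of 1 such stretch of transcript. The oligos of Arntl and Clock 4 are given whole, and those of the others by their first 30 bases, all in lower case as no part of them is singled out. They are shown because the 4 Clock oligos gave unlike values and because 1 oligo stands for each of Arntl and Npas2.
Arntl: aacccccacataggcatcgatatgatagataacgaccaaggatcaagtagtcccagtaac
Clock 1: ttcccatttgagttgctcttgtaatatttt
Clock 2: ccgtttttaaaggatccctaatcatcactt
Clock 3: tggtggacccttactagaaagaatcacaga
Clock 4: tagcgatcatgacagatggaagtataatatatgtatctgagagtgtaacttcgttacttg
Npas2: agatgggatgaagcgtttacgtgattttgg
Clock 1 (A_52_P334670), Clock 2 (A_52_P334677) and Clock 4 (A_52_P161365) were designed on the RefSeq transcript NM_007715, and Clock 3 (A_52_P279391) on the cDNA AK030352. The Arntl probe (A_52_P267651) was designed on NM_007489 and the Npas2 probe (A_52_P534749) on NM_008719. No oligo shared a run of 12 bases with another member's oligo, and their GC content was 45% for Arntl and Npas2 and between 35 and 36.7% for the 4 Clock oligos. Whether the Arntl oligo lies in the floxed exon was not determined here, so its signal in Cre livers checks the genotype labels only in part.

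The RefSeq promoter windows (build GRCm38.p6, 300 bases around an annotated start) were searched on both strands for 4 motifs. These were the longer ROR and REV-ERB element of the Arntl type, which is AAAG directly before TAGGTNA (N is any base), the core TAGGTCA, the E-box CACGTG and the D-box TTATGTAA. The longer motif was in 20 of 32851 windows of the same length (0.0609%), and the core, which can overlap it, in 2.61%, the E-box in 7.15% and the D-box in 0.938%. The longer motif is of the Arntl type and the 20 windows include those of Arntl, so finding it there tests nothing. The second of the 2 Arntl windows, chr7:113207261-113207560 on the plus strand, held the longer motif at both places in capitals.
Arntl promoter: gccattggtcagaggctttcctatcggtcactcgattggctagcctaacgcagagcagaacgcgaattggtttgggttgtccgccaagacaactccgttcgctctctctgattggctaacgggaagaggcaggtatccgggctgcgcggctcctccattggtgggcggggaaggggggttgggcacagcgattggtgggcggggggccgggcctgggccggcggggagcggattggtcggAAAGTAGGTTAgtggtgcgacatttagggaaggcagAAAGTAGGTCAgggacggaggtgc
The 3 Clock windows and the Npas2 window held none of the 4 motifs, which says only that these letters are not in these windows.

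All values below are log2 ratios with Cy5 as numerator, taken to be the sample, and Cy3 as denominator, taken to be the reference. The labels state the opposite, with Cy3 on the sample and Cy5 on the reference. Cy5 was the channel that varied between arrays of 1 slide, as in 77.96 to 94.5% of the tested probes on the 6 slides with more than 1 array. For Arntl the within-slide standard deviation (SD) was 1.13 in Cy5 and 0.089 in Cy3, and for Npas2 it was 1.06 in Cy5 and 0.147 in Cy3. For the 4 Clock probes it ran from 0.320 to 0.396 in Cy5 and from 0.0632 to 0.139 in Cy3. Over all 24 arrays the normalised log2 intensity of Arntl ran from 7.67 to 11.5 in Cy5 and from 9.42 to 10.2 in Cy3. With the dyes as labelled every sign below turns and every peak moves by 12 h, while amplitudes and p-values stay. No pair of arrays correlated below -0.26 over the probes.

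**Figure D1:**
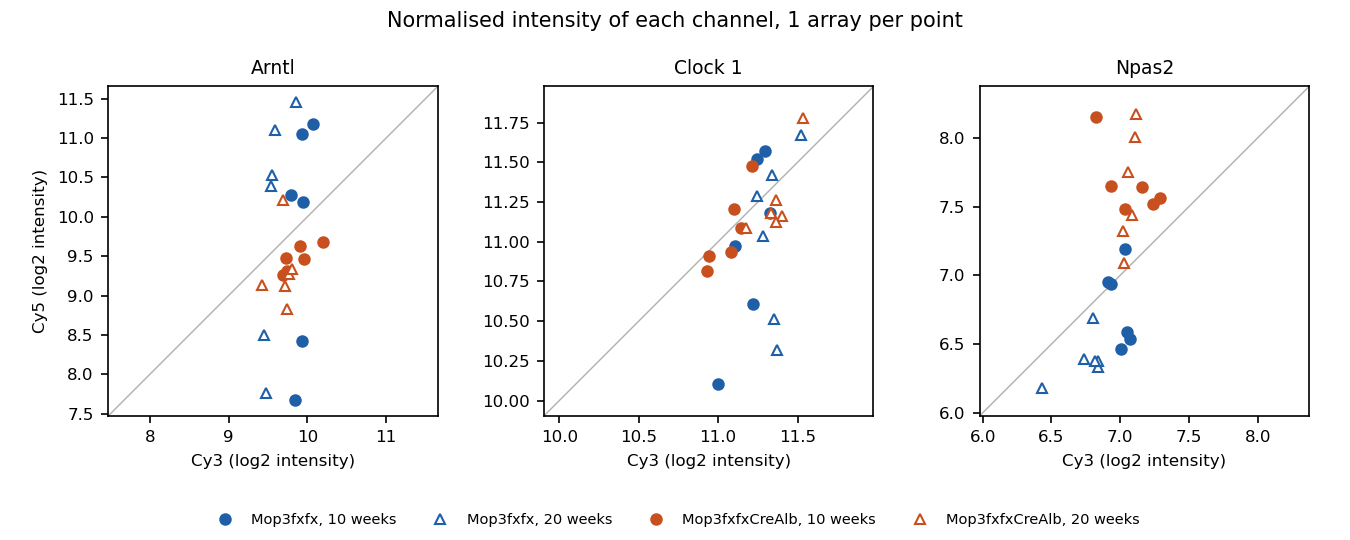
Normalised log2 intensity in Cy5 (vertical) against Cy3 (horizontal) for Arntl, Clock 1 and Npas2, with 1 point per array, colour for genotype and symbol for age. The grey line marks equal intensity. Arntl spans 3.78 in Cy5 and 0.777 in Cy3, Clock 1 spans 1.67 and 0.605, and Npas2 spans 1.995 and 0.857.

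None of the 6 probes was saturated or had an outlier spot on any array. The share of probes well above background in Cy5 ran from 56.7 to 70.3% over the arrays. Arntl, Clock 1, Clock 2 and Clock 3 were well above background in Cy5 on all 24 arrays. Clock 4 was so on 10 of 12 floxed and 12 of 12 Cre arrays, and Npas2 on 5 of 12 floxed and 12 of 12 Cre arrays. The arrays lay on 7 slides, and 4 of them held both genotypes. At 20 weeks 1 slide held 4 floxed and 0 Cre arrays (ZT0 to ZT12). Another held 4 Cre and 0 floxed arrays (ZT8 to ZT20) and had its own scan date. No time of 20 weeks had both genotypes on 1 slide, so genotype and slide cannot be fully told apart at that age. The times of each genotype and age were also split between slides, so time and slide cannot be fully told apart. The 10-week Cre array of ZT16 was alone on its slide and alone in its scan date.

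Arntl had a large daily rhythm in floxed livers and lay between the floxed peak and trough of the same age in all 12 Cre arrays, nearly level at 10 weeks (a range of 0.27) and with a range of 1.42 at 20 weeks. In floxed livers of 10 weeks its log2 ratio was 1.10 at ZT0, 0.49 at ZT4, -2.18 at ZT8, -1.51 at ZT12, 0.24 at ZT16 and 1.13 at ZT20. At 20 weeks it was 1.60, 0.86, -1.72, -0.96, 0.98 and 1.52 at the same times. At both ages floxed livers were high from ZT16 to ZT4 and low at ZT8 and ZT12, and ZT8 was the lowest time. In Cre livers of 10 weeks the ratio was -0.49 at ZT0, -0.24 at ZT4, -0.42 at ZT8, -0.43 at ZT12, -0.52 at ZT16 and -0.28 at ZT20. In Cre livers of 20 weeks it was 0.52, -0.29, -0.49, -0.59, -0.47 and -0.90. Of the 12 Cre arrays 11 were below 0, and the 20-week array of ZT0 was above it.

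Which genotype was higher for Arntl turned with the time of day. At ZT8 and ZT12 the Cre array was above the floxed array of the same age in 4 of 4 pairs, and at the other times it was below in 8 of 8 pairs. At ZT8 and ZT12 floxed arrays ran from -2.18 to -0.96 and Cre arrays from -0.59 to -0.42, and the genotypes did not overlap. These are the times at which floxed Arntl was lowest, and the share of all probes that separate there was not counted. At the other times floxed arrays ran from 0.24 to 1.60 and Cre arrays from -0.90 to 0.52, and the 20-week Cre array of ZT0 fell within the floxed range.

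**Figure D2:**
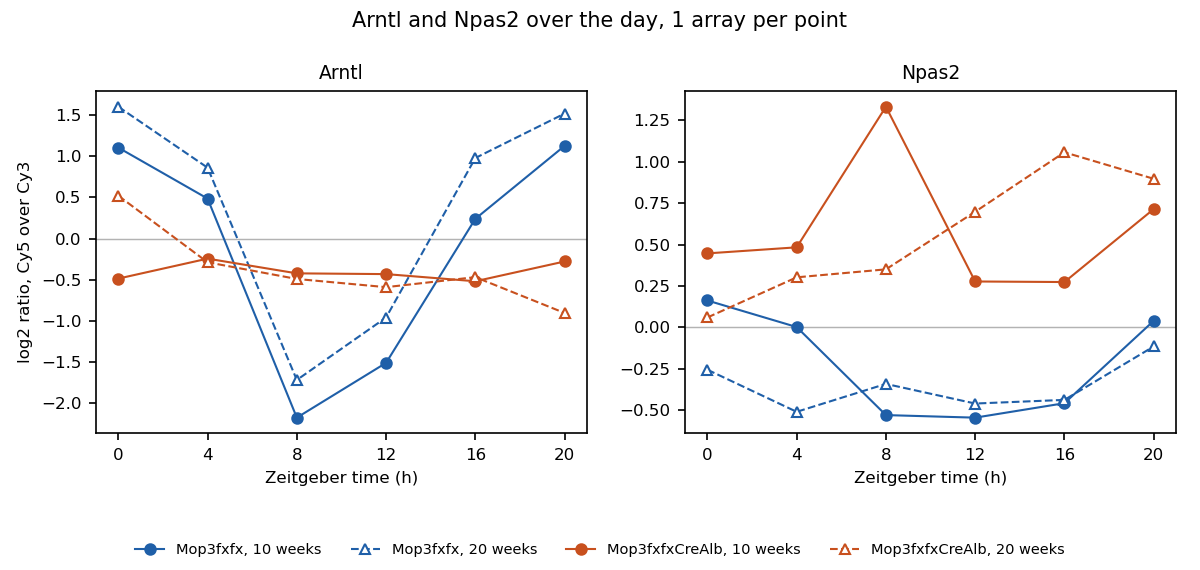
Log2 ratio of Arntl (left) and Npas2 (right) against zeitgeber time in hours, with 1 array per point, colour for genotype and line type for age. Floxed Arntl falls to -2.18 and -1.72 at ZT8 while 11 of 12 Cre arrays lie below 0, and Npas2 is higher in Cre livers at all 12 combinations of age and time.

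A cosine of 24 h was fitted to each genotype with limma, and amplitude is the distance from the mean to the peak on the log2 scale. Floxed Arntl had an amplitude of 1.69 ± 0.17 (standard error, SE, 12 arrays) with the peak at ZT 21.8 ± 0.38, and its rhythm passed the test (limma adjusted p = 4.1e-05). That amplitude ranked 6 among the 27847 probes tested, whose median was 0.104, and 1.4% of all probes were called for a rhythm in floxed livers. In Cre livers the Arntl amplitude was 0.22 ± 0.17, which did not pass (adjusted p = 0.92). No probe at all was called for a rhythm in Cre livers by limma, that is 0% of them, although 2409 probes (8.65%) had an unadjusted p under 0.05.

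Arntl's rhythm was unlike in the 2 genotypes. The curve of the difference, Cre minus floxed, had an amplitude of 1.60 (limma adjusted p = 0.031), and 0.0287% of all probes were called in this test. Those 8 probes were Arntl, the fatty acid elongase Elovl3, the sterol regulator Insig2, the DNA methyltransferase Dnmt3b, Dtx4, Lgalsl, Spon2 and A630005I04Rik. The call of the Arntl rhythm difference was lost with arrays of 1 age and time as a replicate block (adjusted p = 0.072), with scaling between arrays (1.30, adjusted p = 0.18) and in each age alone. It was also lost when any 1 of 15 arrays was left out, with adjusted p up to 0.116 and amplitudes from 1.46 to 1.71. These were the floxed arrays of ZT8, ZT12 and ZT16 at 10 weeks and of ZT0, ZT8, ZT12 and ZT20 at 20 weeks, and the Cre arrays of ZT0, ZT4, ZT8 and ZT12 at 10 weeks and of ZT4, ZT12, ZT16 and ZT20 at 20 weeks.

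Time by time, the Cre minus floxed difference of Arntl was -1.91 ± 0.29 at ZT20 (limma adjusted p = 0.024, 0.104% of all probes called) and 1.49 ± 0.29 at ZT8 (adjusted p = 0.047, 0.37% called). At ZT0, ZT4 and ZT16 the differences were -1.34, -0.94 and -1.10, and at ZT12 the difference was 0.72, each ± 0.29 and none called (adjusted p from 0.13 to 0.45, with 0.0934, 0.115, 0.334 and 0.427% of all probes called at ZT0, ZT4, ZT16 and ZT12). With arrays of 1 age and time as a replicate block neither the Arntl difference at ZT8 (adjusted p = 0.134) nor that at ZT20 (adjusted p = 0.117) kept its call, and with scaling between arrays they were 1.13 and -1.86 (adjusted p = 0.47 and 0.067). Without the floxed array of ZT20 of either age or the 20-week Cre array of ZT20 the ZT20 difference was not called, with values over all arrays left out from -2.40 to -1.43. The ZT8 difference kept its call only without the 10-week floxed array of ZT16, the 20-week floxed array of ZT16, or the Cre arrays of ZT0 and ZT20 of either age, and ran from 1.31 to 1.67 over the 24 single arrays left out.

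Averaged over the cycle, the log2 difference of Arntl, Cre minus floxed, was -0.51 ± 0.17 (limma adjusted p = 0.035, lower in 8 of 12 pairs). In this test 21.7% of all probes were called, 10.6% as higher and 11.1% as lower, and the median difference over all probes was -0.0063. The Arntl mean difference was not called with the slide as fixed terms (-0.25, adjusted p = 0.58) or as a random block (-0.41, adjusted p = 0.13), nor at 10 weeks (-0.28 ± 0.20, adjusted p = 0.63) or 20 weeks alone (-0.75 ± 0.27, adjusted p = 0.066). Within slides the difference was -1.59 at ZT0 of 10 weeks, 0.17 over ZT4 and ZT12, and 0.17 over ZT8 and ZT20, so it followed which times a slide held. On the slide of 20 weeks with Cre arrays of ZT0 and ZT4 and floxed arrays of ZT16 and ZT20 it was -1.13. When single arrays were left out the Arntl mean difference ran from -0.59 to -0.43 and was not called without any 1 of 11 (adjusted p up to 0.071). These were the floxed arrays of ZT4 and ZT16 at 10 weeks and of ZT4, ZT12 and ZT16 at 20 weeks, and the Cre arrays of ZT0 at 10 weeks and of ZT4 to ZT20 at 20 weeks.

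Floxed Arntl amplitudes were 1.71 ± 0.20 at 10 weeks and 1.68 ± 0.27 at 20 weeks, with peaks at ZT 21.9 ± 0.45 and ZT 21.7 ± 0.61. With 6 arrays per genotype the floxed rhythm was not called at either age alone (adjusted p = 0.076 and 0.16). The Cre amplitudes were 0.064 ± 0.20 and 0.37 ± 0.27. Arntl was higher at 20 than at 10 weeks by 0.26 ± 0.17, which was not called (adjusted p = 0.25, 30.5% of all probes called for age). The genotype difference itself did not pass a test of its change with age (-0.48 ± 0.33, adjusted p = 0.38, 9.05% of all probes called). Age and collection day cannot be told apart.

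Ordered by the mean of both ages, the highest Arntl levels were floxed ZT0 (1.35 ± 0.35, SD of 2 arrays) and floxed ZT20 (1.32 ± 0.28), which did not differ beyond their spread. Floxed ZT4 (0.67 ± 0.27) and ZT16 (0.61 ± 0.52) followed and overlapped each other. The 6 Cre times came next, from 0.017 ± 0.71 at ZT0 to -0.59 ± 0.44 at ZT20, and neighbours among them lay within their spread, apart from ZT4 (-0.27 ± 0.03) and ZT8 (-0.46 ± 0.05). Floxed ZT12 (-1.23 ± 0.39) and floxed ZT8 (-1.95 ± 0.32) were the lowest, below every Cre time.

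Clock encodes the partner of ARNTL, and its brightest probe, Clock 1, was low at ZT8 and ZT12 in floxed livers of both ages and had a smaller range in Cre livers (0.42 at 10 and 0.48 at 20 weeks, against 1.17 and 1.20). In floxed livers of 10 weeks Clock 1 was 0.27 at ZT0, -0.14 at ZT4, -0.89 at ZT8, -0.61 at ZT12, 0.28 at ZT16 and -0.14 at ZT20. At 20 weeks it was 0.15, 0.08, -1.05, -0.84, -0.25 and 0.04. In Cre livers Clock 1 was 0.27, -0.15, -0.11, 0.10, -0.03 and -0.05 at 10 weeks and 0.24, -0.15, -0.24, -0.09, -0.11 and -0.24 at 20 weeks. At ZT8 and ZT12 the 4 floxed arrays, from -1.05 to -0.61, were all below the 4 Cre arrays, from -0.24 to 0.10. These are the times at which floxed Clock 1 was lowest, and the share of all probes that separate in this way was not counted. At the other times the genotypes overlapped, and Cre was above floxed in 3 of 8 pairs.

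Floxed Clock 1 had an amplitude of 0.54 ± 0.09 with the peak at ZT 21.9 ± 0.66 (limma adjusted p = 0.0092), within its error of the peak time of Arntl. In Cre livers the amplitude was 0.081 ± 0.093 (adjusted p = 0.97). The rhythm difference of Clock 1 had an amplitude of 0.46 and was not called (adjusted p = 1.0), so a loss of its rhythm in Cre livers was not shown by this test. At single times Clock 1 was higher in Cre livers at ZT8 by 0.80 ± 0.14 (adjusted p = 0.034) and at ZT12 by 0.73 ± 0.14 (adjusted p = 0.046), and at the other times the differences ran from -0.12 to 0.043. The mean over the cycle differed by 0.21 ± 0.09, which was not called (adjusted p = 0.11). Within slides the Clock 1 difference was -0.0089 at ZT0, 0.35 over ZT4 and ZT12, 0.44 over ZT8 and ZT20, and 0.15 on the slide with unlike times.

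The time-by-time calls of Clock 1 were close to the threshold, and the ZT8 call was lost in 6 and the ZT12 call in 7 of 13 other settings. With arrays of 1 age and time as a replicate block the Clock 1 difference at ZT8 had an adjusted p of 0.090 and that at ZT12 one of 0.084. Leaving out a single array ended the ZT8 call for 8 arrays, those of ZT8 in both genotypes and ages, the floxed arrays of ZT12 and the Cre arrays of ZT4, with values from 0.77 to 0.82. The ZT12 call was kept only without the floxed arrays of ZT4, ZT16 or ZT20 or the Cre array of ZT16 of either age, with values from 0.67 to 0.80. The Clock 1 mean difference was called without the 10-week floxed array of ZT16 or the 20-week floxed array of ZT4 (up to 0.27). The floxed rhythm of Clock 1 was called without each of the 24 arrays, with amplitudes from 0.48 to 0.62, and was lost with scaling between arrays (0.43, adjusted p = 0.16) and at each age alone.

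Clock 2 showed the same low values at ZT8 and ZT12. In floxed livers it was 0.14, -0.26, -0.66, -0.69, 0.26 and -0.05 from ZT0 to ZT20 at 10 weeks, and 0.08, 0.26, -0.64, -0.56, 0.12 and 0.40 at 20 weeks. In Cre livers it was 0.07, -0.26, 0.07, -0.18, -0.22 and -0.02 at 10 weeks, and 0.23, -0.15, -0.34, -0.29, -0.22 and -0.38 at 20 weeks. Floxed arrays of ZT8 and ZT12 were the lowest of all 24 arrays, and the genotypes overlapped at the other times. These times were chosen for the low floxed values, and the share of all probes that separate there was not counted. The Clock 2 differences at ZT8 (0.52) and ZT12 (0.39) were not called (limma adjusted p = 0.55 and 0.60). The floxed amplitude was 0.46 ± 0.09 with the peak at ZT 21.3 ± 0.74 (limma adjusted p = 0.024), and the Cre amplitude was 0.12 ± 0.09 (adjusted p = 0.90). The mean of Clock 2 over the cycle differed by -0.0082 ± 0.089 (adjusted p = 0.96, higher in 6 of 12 pairs), and its sign turned in 7 of 16 other settings. Its floxed rhythm was not called without the floxed arrays of ZT8 or ZT12 of either age or the 20-week floxed array of ZT20 (adjusted p up to 0.089, amplitudes from 0.42 to 0.53), nor in 4 of 15 other settings.

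Clock 3, the probe designed on another cDNA, was the one Clock probe called for a difference between ages. In floxed livers of 10 weeks it was 0.19, -0.30, -1.21, -0.64, 0.12 and -0.13 from ZT0 to ZT20, low at ZT8 and ZT12 as the other Clock probes were. In floxed livers of 20 weeks it was 0.12, 0.22, -0.21, 0.31, 0.18 and 0.32, low only at ZT8 and with a range of 0.53, close to the 0.52 of Cre livers at that age. Cre livers gave 0.02, -0.21, -0.26, 0.01, 0.16 and -0.28 at 10 weeks and 0.11, 0.19, 0.21, 0.34, 0.35 and -0.17 at 20 weeks. It was higher at 20 than at 10 weeks by 0.37 ± 0.10 (limma adjusted p = 0.0094), and age was not called for the other 5 probes (adjusted p from 0.25 to 0.84). This 1 of 6 stands against 30.5% of all probes called for age. Whether the age effect differed between Clock 3 and the other Clock probes was not tested. The floxed amplitude of 0.36 ± 0.10 did not pass (adjusted p = 0.20), and it was 0.58 ± 0.14 at 10 weeks and 0.14 ± 0.10 at 20 weeks. The mean difference between genotypes was 0.12 ± 0.10 (adjusted p = 0.41).

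Clock 4 was the dimmest of the Clock probes, and over both ages its fitted floxed amplitude was the smallest of the 4. At 20 weeks alone floxed Clock 3 had the smaller amplitude (0.14 against 0.20), and on the deposited ratio floxed Clock 4 (0.62) was above Clock 3 (0.50). In floxed livers it was 0.07, -0.24, -0.58, -0.40, -0.04 and 0.03 from ZT0 to ZT20 at 10 weeks, and -0.20, -0.12, -0.39, -0.17, -0.03 and 0.16 at 20 weeks. In Cre livers all 12 arrays lay between -0.13 and 0.041, a narrower range than in floxed livers. The floxed amplitude was 0.26 ± 0.04 with the peak at ZT 20.3 ± 0.66 (limma adjusted p = 0.0097), and the Cre amplitude was 0.0066 ± 0.044 (adjusted p = 1.0). This floxed rhythm lost its call without the 10-week floxed array of ZT8 (adjusted p = 0.054), and in 7 of 15 other settings. The Clock 4 rhythm on the deposited ratio had an adjusted p of 0.14, and its Cy5 signal was not well above background on the floxed arrays of ZT8 at 10 weeks and ZT0 at 20 weeks.

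Averaged over the cycle Clock 4 was higher in Cre livers by 0.14 ± 0.04 (limma adjusted p = 0.034, higher in 8 of 12 pairs). The Clock 4 mean difference ran from 0.089 to 0.53 over the 16 other settings, with the highest on the deposited ratio, and was called in 9 of them. With arrays of 1 age and time as a replicate block its adjusted p was 0.052. It was not called without any 1 of 10 arrays, with values from 0.11 to 0.15 and adjusted p up to 0.062. These were the floxed arrays of ZT8, ZT12 and ZT20 at 10 weeks and of ZT0, ZT8 and ZT16 at 20 weeks, and the Cre arrays of ZT0 and ZT20 at 10 weeks and of ZT8 and ZT12 at 20 weeks.

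**Figure D3:**
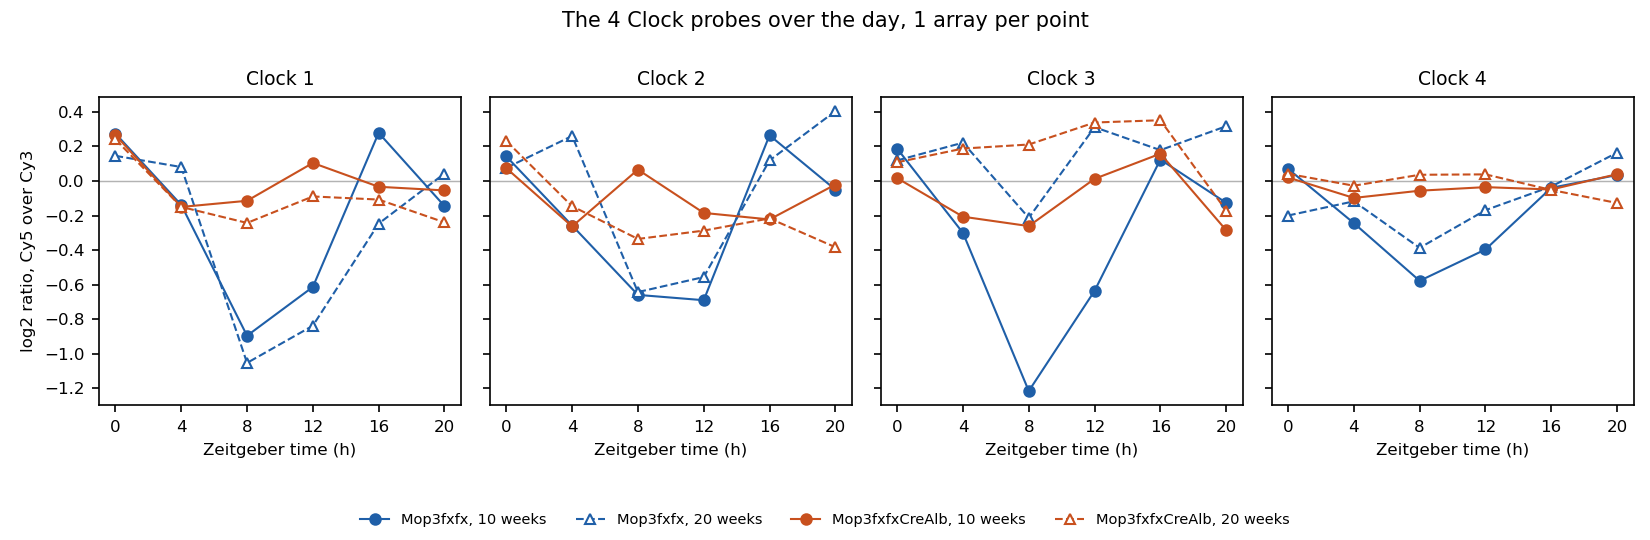
Log2 ratio of the 4 Clock probes against zeitgeber time in hours, with 1 array per point, colour for genotype and line type for age, on a shared vertical axis. Floxed Clock 1 and Clock 2 are low at ZT8 and ZT12 at both ages, floxed Clock 3 reaches -1.21 at ZT8 of 10 weeks and -0.21 at ZT8 of 20 weeks, and Cre Clock 4 lies between -0.13 and 0.041.

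Across the 4 Clock probes the floxed trough at ZT8 and ZT12 was shared at 10 weeks and not at 20 weeks. At 20 weeks floxed Clock 3 was 0.31 at ZT12, and floxed Clock 4 was lower at ZT0 (-0.20) than at ZT12 (-0.17). At ZT8 and ZT12 the Cre array was above the floxed array in 4 of 4 pairs for each probe. These times were chosen for the low floxed values, so the pairs are no test. The share of all probes with such pairs was not counted. At the other times the Cre array was above in 3, 2, 3 and 4 of 8 pairs for Clock 1 to Clock 4. These 4 probes read 1 gene in the same pools and are not replicates. Of the 4, 3 were called for a rhythm in floxed livers, against 1.4% of all probes. None was called in Cre livers (0% of all probes) or for a rhythm difference (adjusted p from 0.77 to 1.0, 0.0287% of all probes called). For the mean over the cycle 1 of 4 was called, near the 21.7% of all probes. The difference at ZT8 was 0.52 for Clock 2, 0.69 for Clock 3 and 0.47 for Clock 4, none of them called (adjusted p = 0.55, 0.41 and 0.17).

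Npas2, the paralog of Clock, was higher in Cre livers at every time and at both ages. In floxed livers it was 0.16 at ZT0, 0.00 at ZT4, -0.53 at ZT8, -0.54 at ZT12, -0.46 at ZT16 and 0.04 at ZT20 at 10 weeks. At 20 weeks it was -0.26, -0.51, -0.34, -0.46, -0.44 and -0.12. In Cre livers it was 0.45, 0.48, 1.33, 0.28, 0.27 and 0.71 at 10 weeks and 0.06, 0.30, 0.35, 0.70, 1.06 and 0.90 at 20 weeks. Within each age the genotypes did not overlap, with every Cre array above every floxed array, which held for 1.48% of all probes at 10 weeks and 3.25% at 20 weeks. Every Cre array lay below every floxed array for 1.11 and 4.66% of all probes. Over both ages only the 20-week Cre array of ZT0 (0.06) lay below a floxed array, the 10-week one of ZT0 (0.16).

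The mean of Npas2 over the cycle rose by a log2 difference of 0.86 ± 0.12 (limma adjusted p = 5.1e-05). It was higher in 12 of 12 pairs, which held for 2.89% of all probes, while 2.74% were lower in every pair. The call held in each of 16 other settings and without each of the 24 arrays, where the Npas2 mean difference ran from 0.78 to 0.92. It was 0.81 ± 0.16 at 10 weeks (adjusted p = 0.040, 2.56% of all probes called at that age) and 0.91 ± 0.10 at 20 weeks (adjusted p = 0.00077, 29.5% called). Its change with age was not called (0.10 ± 0.24, adjusted p = 0.83). Within slides the difference was 0.28 at ZT0, 0.65 over ZT4 and ZT12, 1.27 over ZT8 and ZT20, and 0.46 on the slide with unlike times.

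The size of the Npas2 difference depended on how background was handled. On the deposited ratio the Npas2 mean difference was 2.43 ± 0.23 (limma adjusted p = 4.1e-07), and with normexp and an offset of 16 it was 1.22 ± 0.15. Npas2 in Cy5 was not well above background on 7 of 12 floxed arrays, those of ZT8 and ZT12 at 10 weeks and of ZT0 to ZT16 at 20 weeks. Which of these sizes lies nearest to the true Npas2 difference was not tested.

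No rhythm of Npas2 was called in either genotype. The floxed amplitude was 0.26 ± 0.12 with the peak at ZT 23.1 ± 1.79 (limma adjusted p = 0.57) and the Cre amplitude was 0.15 ± 0.12 (adjusted p = 0.93). The Cre livers had their highest Npas2 value at ZT8 (1.33) at 10 weeks and at ZT16 (1.06) at 20 weeks. The highest arrays of the ages were thus at unlike times. At 20 weeks the Cre arrays of ZT0 and ZT4 lay on another slide than those of ZT8 to ZT20, so time and slide cannot be told apart there. At single times the difference between genotypes ran from 0.30 ± 0.30 at ZT0 to 1.28 ± 0.30 at ZT8, and none was called (adjusted p from 0.13 to 0.85). In the order of the time means, the 6 Cre times, from 0.84 ± 0.69 (SD of 2 arrays) at ZT8 to 0.25 ± 0.27 at ZT0, were all above the 6 floxed times, from -0.038 ± 0.11 at ZT20 to -0.50 ± 0.06 at ZT12. Neighbours within each genotype lay within their spread.

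**Figure D4:**
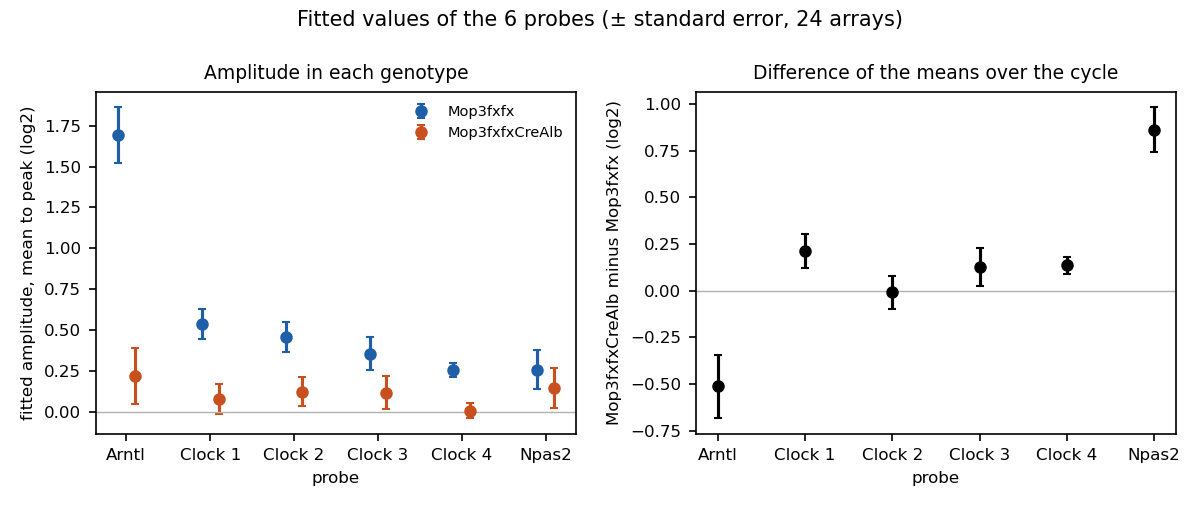
Fitted amplitude of each of the 6 probes in each genotype (left, mean to peak, log2) and difference of the means over the cycle, Mop3fxfxCreAlb minus Mop3fxfx (right, log2), with standard errors from the fit to 24 arrays. Arntl has the largest floxed amplitude of the 6 (1.69) and the lowest mean difference (-0.51), and Npas2 has the highest mean difference (0.86).

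The members were compared with each other by Pearson's r of their log2 ratios, as a description, since all come from the same arrays. Over the 24 arrays r between Arntl and the Clock probes was 0.70, 0.84, 0.54 and 0.61 for Clock 1 to Clock 4. In the 12 floxed arrays these were 0.88, 0.90, 0.71 and 0.84, and in the 12 Cre arrays 0.54, 0.72, 0.012 and 0.44. Among the Clock probes r over 24 arrays ran from 0.50 (Clock 1 and Clock 3) to 0.83 (Clock 1 and Clock 2). Between Arntl and Npas2 it was -0.097 over all arrays, 0.57 in floxed and -0.48 in Cre arrays.

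Other genes whose log2 ratios ran most like each leading probe over the 24 arrays were taken among all tested probes with a gene symbol. For Arntl these were Nfil3 (r = 0.79), which encodes the D-box repressor E4BP4, Tnfaip2 (0.78), Acnat1 (0.77) and Pxmp4 (0.77), and the most opposite were Coq10b (-0.83), Scamp1 (-0.81) and Fyttd1 (-0.76). For Clock 1 the most alike were Lrfn3 (0.85), Nfil3 (0.85) and Ube2u (0.81), and the most opposite were Nrep (-0.86), Ngef (-0.82) and 0610005C13Rik (-0.81). For Npas2 they were the tubulin Tuba8 (0.91), Zfp839 (0.90), Cnp (0.90) and Paxx (0.89) against Abcb1b (-0.90), Atf6 (-0.90) and C730036E19Rik (-0.89). Each of these was, as Npas2 was, called for the mean difference between genotypes. In floxed arrays alone their r with Npas2 ran from 0.45 to 0.75 and, for the opposite genes, from -0.70 to -0.30. In Cre arrays alone it ran from 0.74 to 0.86 and from -0.84 to -0.81. The Nfil3 probe named for Arntl had r = 0.91 in floxed and -0.24 in Cre arrays, so its likeness lay in the floxed arrays.

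The loops around the 3 members were described with gene lists, by the brightest probe of each gene. Of the 5 PER and CRY genes, which encode the repressors of the ARNTL dimers, 1 rose and none fell in the mean over the cycle, against 10.6% of all probes higher and 11.1% lower, with a median difference of 0.18. The one that rose was Cry1, by 0.99 ± 0.17 (limma adjusted p = 0.00036). Of 4 other repressors of E-box activity 1 fell, Ciart by -1.16 ± 0.21 (adjusted p = 0.00061), and the median was -0.17. Of the 5 E-box output genes 4 fell and 0 rose, and their median difference was -0.41. They were the D-box activators Dbp (-0.88 ± 0.18) and Tef (-0.41 ± 0.13), the ubiquitin protease Usp2 (-0.99 ± 0.21) and the cell cycle kinase Wee1 (-0.40 ± 0.11). The 4 probes of Tef ran from -0.41 to -0.065.

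The genes of both REV-ERB repressors of Arntl fell. Of 6 listed REV-ERB, ROR and related genes 5 were measured, and 1 rose and 2 fell, with a median difference of -0.026. Of all probes 10.6% were higher and 11.1% lower. Nr1d2 fell by -1.59 ± 0.20 (limma adjusted p = 1.7e-05) and Nr1d1 by -0.93 ± 0.18 (adjusted p = 0.0011). The 3 probes of Nr1d1 ran from -0.93 to -0.0039. In floxed livers Nr1d1 peaked at ZT 6.83, Nr1d2 at ZT 9.68 and Arntl at ZT 21.8. Nfil3 had a mean difference of -0.026 and a floxed amplitude of 0.86.

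Of 11 measured genes of the wider bHLH-PAS family, out of 16 listed, 1 rose and 2 fell, with a median of 0.010. The coactivators Ncoa3 (0.25 ± 0.07) and Ncoa2 (-0.36 ± 0.08) and the hypoxia factor Hif1a (-0.43 ± 0.12) were called. The 3 probes of Ncoa2 ran from -0.36 to 0.019 and the 3 of Ncoa3 from -0.021 to 0.25. Of 19 cofactors and kinases of the clock 1 rose and 6 fell, with a median of -0.13. The 4 of them with the smallest p were the NAD synthesis enzyme Nampt (-0.72 ± 0.12), Fbxl21 (0.29 ± 0.06), the kinase Gsk3b (-0.33 ± 0.07) and the acetyltransferase Ep300 (-0.49 ± 0.11). The 2 probes of Gsk3b ran from -0.33 to -0.030 and the 2 of Ep300 from -0.49 to -0.14. In all, 19 of the 49 measured list genes were called for the mean (38.8%, against 21.7% of all probes), and 14 had a called rhythm in floxed livers (28.6%, against 1.4%). None was called for a rhythm in Cre livers or for a rhythm difference. The lists were chosen with earlier results of these data known, and each gene was read by its brightest probe. These shares are therefore a description and no independent test against all probes. With scaling between arrays and on the deposited ratio no called gene of these lists turned its sign. Scaling ended the calls of Ncoa3 and the histone methyltransferase Kmt2a (adjusted p = 0.059 and 0.088), and the deposited ratio those of the corepressor Ncor1 and the acetyltransferase Kat2b (adjusted p = 0.060 and 0.11), so of the 6 cofactors that fell 5 were called with scaling and 4 on the deposited ratio. Kmt2a, Ncor1 and Kat2b are named for their lost calls, after their values were seen. The 7 probes of Ncor1 ran from -0.26 to 0.27 and the 2 of Kat2b from -0.35 to 0.012. The medians of the bHLH-PAS list (-0.071 and -0.029) and, on the deposited ratio, of the REV-ERB and ROR list (0.0027) changed sign.

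Markers of liver cell types were read beside these differences, since in bulk tissue fewer cells of a type and less RNA per cell cannot be told apart. Of 7 measured hepatocyte markers 1 fell, Hnf4a by -0.41 ± 0.08, and the 3 probes of Hnf4a ran from -0.41 to 0.070. Of these markers, 5 of the 7 were saturated on at least 12 arrays. Their mean log2 ratio ran from -0.17 to 0.14 in floxed and from -0.43 to 0.14 in Cre arrays. Among markers of other cells 1 of 7 for macrophages, 1 of 6 for sinusoidal endothelium, 3 of 7 for stellate cells, 2 of 6 for cholangiocytes and none of 6 for lymphocytes rose, and none fell, against 10.6% of all probes higher and 11.1% lower. The largest were Spp1 (1.39 ± 0.17) and Sox9 (1.06 ± 0.12) among the cholangiocyte genes, and the 3 probes of Sox9 ran from 0.065 to 1.11. Krt19, Krt7 and Epcam differed by -0.081, -0.075 and 0.0056 and were not called. The list mean ran from -0.72 to -0.0045 in floxed and from -0.29 to 0.25 in Cre arrays for cholangiocytes, and from -0.62 to 0.042 and from -0.40 to 0.16 for stellate cells. For macrophages it ran from -0.79 to 0.32 and from -0.74 to 0.50, for endothelium from -0.40 to 0.17 and from -0.70 to 0.23, and for lymphocytes from -0.22 to 1.03 and from -0.12 to 0.63. With scaling between arrays the endothelial marker Lyve1 and the stellate marker Pdgfrb lost their calls (adjusted p = 0.13 and 0.075). The part of these cells in the differences of Arntl, Clock and Npas2 was not tested.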

How the data were processed

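RNA of 24 liver pools was measured on 2-colour Agilent arrays. Per the file headers, the deposited scanner files were made with Agilent Feature Extraction 9.1.3.1 and hold the intensity of 45018 spots in Cy5 and Cy3. They also hold, per the file headers, the authors' log10 ratio of Cy5 over Cy3, which the deposited series matrix repeats (largest difference 0).

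Mean signals were corrected with normexp (offset 50) and turned into log2 ratios normalised by loess within each array, with 1639 control spots at weight 0 and flagged outliers left out. The log2 ratios of deposited intensities were fitted with limma 3.58.1 in R 4.3.3 (with statmod 1.5.0 and release 1.17.8 of data.table). One fit gave each genotype a level and a cosine and sine of 24 h, with a term for age, and another gave each genotype a level at every time, with a term for age. A call is an adjusted p under 0.05 (Benjamini-Hochberg over all 27847 probes). Fits were tested on simulated data.

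The members, lists and tests were chosen with earlier results of these data known. The ratio was planned as Cy5 over Cy3, against the labels, as an earlier report on these data had read it. The condition was that Cy5 again varied more than Cy3 within slides. Every member probe is described. Genes of like pattern are the 4 highest and 3 lowest correlations with a leading probe, and of each list the 4 called genes with the smallest p are named. Some genes that this rule names are not reported here. Symbols were taken, through a supplied list of RefSeq genes, by accession for 24375 probes, by symbol for 6301 and by older symbol for 2426, and 8072 kept the file's name. The labels name no single animals per array, and no pool was repeated. The p-values therefore measure the spread of the arrays around the fitted curves or time levels. That spread can hold effects of slide, collection day, curve shape or age as well as differences between pools. Array weights, background, filters, blocks, ages and single arrays left out were tried as alternatives.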

Additional observations from a re-analysis of the deposited data

Results flagged for a closer look

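Among 24 sets of 6 arrays (6 probes, 2 genotypes, 2 ages), 2 held an array far from its neighbour relative to the range, and chance alone marks about 1 in 20 such sets. In Cre livers of 20 weeks Clock 1 was highest at ZT0, at 0.24, while the other 5 arrays lay between -0.24 and -0.09. In floxed livers of 20 weeks Clock 3 was lowest at ZT8, at -0.21, while the next lowest array was at 0.12. The arrays of a set come from different times of day and from more than 1 slide.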

How the results depend on the processing

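The rise of Npas2 in the mean over the cycle was called in all 40 other settings, from 0.78 to 2.43. The Arntl mean difference kept its sign and was called in 22 of 40. It was not called on the deposited ratio (-0.51, adjusted p = 0.075), with no filter (-0.51, adjusted p = 0.054), with the slide as a random block (-0.41) or as fixed terms (-0.25), with the scan date as a random block (-0.38), or at 10 weeks (-0.28) and 20 weeks alone (-0.75). Its range without single arrays was -0.59 to -0.43. The Arntl rhythm difference was not called with scaling between arrays (1.30), with no filter (1.60, adjusted p = 0.063), with arrays of 1 age and time as a replicate block (1.60, adjusted p = 0.072), at 10 weeks (1.68) or 20 weeks alone (1.54), without both 20-week ZT0 arrays (1.72) or with rhythm terms for each age (1.60, adjusted p = 0.059), and ran from 1.46 to 1.71 without single arrays. The Clock 1 mean difference was called with array weights (0.23, adjusted p = 0.048) and ran from 0.16 to 0.27 without single arrays. The Clock 2 mean difference turned its sign with an offset of 16 (0.0022), on the deposited ratio (0.097), in Cy5 alone (0.12), with the slide as a random block (0.051) or as fixed terms (0.17), with the scan date as a random block (0.079) and at 10 weeks (0.12), and ran from -0.047 to 0.046 without single arrays. Counts over all probes moved more. Calls of the mean difference numbered 6053 and ran from 713 (10-week arrays) to 10361 (array weights), those of the floxed rhythm 389 and from 10 to 901, those of the Cre rhythm 0 and from 0 to 170 (array weights), and those of the rhythm difference 8 and from 0 to 27. The 20-week arrays alone called 8224 probes for the mean difference. The cause of these moves was not tested. Dim Cy5 signals of Npas2 and Clock 4 in floxed livers leave the size of their differences uncertain.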
